A study of Mus musculus with 9 samples.

Results

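The 8 genes Nodal, Tdgf1, Lefty1, Lefty2, Gdf3, Fgf4, Fgf5 and Fgf8, secreted signals of the early mouse embryo and their close partners, were followed over all 9 arrays of a study of induced pluripotent stem (iPS) cells. They were taken by gene symbol, and each was measured by 1 probe spotted once, which gives 8 of 20868 gene probes and 8 of 15691 named genes. Of the 8 probes 6 were well above background in embryonic stem (ES) cells, and the iPS clones held 3 to 6 of them. Each of these 6 read highest in ES. For Lefty1, Lefty2 and Nodal an iPS clone made with 10 factors had 14.5% to 21.7% of the ES signal and each other clone under 5%. The 4 clones as a group did not pass the test against ES for any of these 3. Gdf3, Fgf4 and Fgf8 were well above background in every clone, and of them Gdf3 alone was so in no fibroblast-derived sample.

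RNA of each sample was labelled with Cy3 and hybridised once to a single-colour Agilent array. The ES cells carried no functional Fbx15 (labelled Fbx15-null) and were grown on STO cells, a fibroblast line used as feeder. Mouse embryonic fibroblasts (MEF) came from Fbx15-null embryos at E13.5. The 4 iPS clones were made from Fbx15 bgeo-KI MEF, in which a drug resistance gene sits in the Fbx15 locus, by retroviral transfer of 4 factors (the 4F clone), 10 factors (the 10F clone) or 3 factors (2 clones, 3Fa and 3Fb), followed by 16 days of G418. MEF of that knock-in genotype that received the 4 factors without G418, and in which no iPS clones were seen, form the unselected MEF. The other fibroblast-derived samples were NIH3T3 cells, a fibroblast line, transformed by a retrovirus for active HRas (HRasV12), and wild-type MEF that had immortalised spontaneously and then received a retroviral vector, called the immortalised line here. Apart from these last 2, all samples carry a disrupted Fbx15 gene. The labels do not name the factors. Each iPS sample is 1 clone, so p-values measure the spread between these clones or lines and not between repeated preparations, and a lone ES or MEF array was assumed to vary like the clones.

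Nodal is a ligand of the TGF-beta family that signals through activin receptors and Smad proteins, needs an EGF-CFC co-receptor such as Tdgf1 (Cripto), and switches on its own inhibitors Lefty1 and Lefty2. Gdf3 is a relative of Nodal that is expressed in pluripotent cells. Fgf4 is the fibroblast growth factor through which ES cells drive their own ERK signalling on the way to differentiation, Fgf5 marks the epiblast after implantation, and Fgf8 is made by the gastrulating embryo. In mouse ES cells the enhancer through which Pou5f1 and Sox2 are known to drive Fgf4 lies in its last exon.

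The deposited probe coordinates, for which the sources used here give no genome build, place the Nodal probe at chr10:61389025-61389084 and the Tdgf1 probe at chr9:110980779-110980838. The Lefty2 probe lies at chr1:180851667-180851726 and the Lefty1 probe at chr1:180891827-180891886, 40.2 kb from each other. Gdf3 was read at chr6:123271734-123271793, Fgf4 at chr7:139274704-139274763, Fgf5 at chr5:97294870-97294929 and Fgf8 at chr19:45284311-45284370. Each probe is annotated by the deposited files with the RefSeq transcript of its gene, and the position within the transcript (coding part or UTR) was not used here.

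RefSeq promoter windows of GRCm38.p6, from 250 bases before to 50 after the transcript start, matched 4 of the 8 genes by symbol. 3 of them are shown, for the ligand, the co-receptor and the Fgf ligand that head the groups below, on the gene's own strand from 5′ to 3′. Capitals mark matches, on either strand, to 1 of 5 short motifs: the octamer ATGCAAAT, the Sox motif CTTTGT, the Foxh1 motif AATNNACA, the GC box CCGCCC and the TATA box TATAAA.
Nodal (chr10:61417722-61418021, plus strand): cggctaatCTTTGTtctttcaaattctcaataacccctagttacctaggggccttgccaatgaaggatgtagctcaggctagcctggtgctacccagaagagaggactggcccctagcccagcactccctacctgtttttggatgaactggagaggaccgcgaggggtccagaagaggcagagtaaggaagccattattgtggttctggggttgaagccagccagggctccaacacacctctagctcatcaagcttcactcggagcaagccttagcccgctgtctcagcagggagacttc
Tdgf1 (chr9:110946109-110946408, minus strand): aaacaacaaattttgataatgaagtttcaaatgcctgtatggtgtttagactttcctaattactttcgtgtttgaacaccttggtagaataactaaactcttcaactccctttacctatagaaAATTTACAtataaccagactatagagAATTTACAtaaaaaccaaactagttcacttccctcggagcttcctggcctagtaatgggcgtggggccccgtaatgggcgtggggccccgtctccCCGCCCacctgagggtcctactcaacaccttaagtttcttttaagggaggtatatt
Fgf4 (chr7:144861136-144861435, plus strand): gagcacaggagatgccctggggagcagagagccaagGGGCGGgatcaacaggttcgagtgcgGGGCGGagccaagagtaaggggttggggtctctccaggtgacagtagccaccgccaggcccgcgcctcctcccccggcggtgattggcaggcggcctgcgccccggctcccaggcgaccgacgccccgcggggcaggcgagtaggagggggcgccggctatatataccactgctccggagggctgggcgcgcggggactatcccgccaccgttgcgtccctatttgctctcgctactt
The Nodal window held the Sox letters at -242, the Tdgf1 window the Foxh1 letters at -127 and -101 and a GC box at -6, and the Fgf4 window 2 GC boxes on the other strand at -214 and -188, counted from the start. Among 32851 RefSeq promoter windows of this length, 18.7% held the Sox letters, 12.2% the Foxh1 letters, 35.7% the GC box, 13.6% the TATA box and 1.74% the octamer. The matches overlapped no other motif in these windows and describe the letters only.

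Signals are given as a percentage of the array's 75th percentile over gene probes, with the error that the scanning software gives each spot. That error covers the spot alone, not the spread between preparations, and levels are compared between arrays for 1 probe, never between probes. A signal is called well above background where the scanning software says so, and values under 3.63% of the 75th percentile were set to that floor (-4.78 on the log2 scale) before log2 differences were taken. Where the dimmer side was never well above background, the fold is a lower bound. Arrays had 52.4% to 59.6% of probes well above background, and their 75th percentiles lay between 167 and 300. Of 10 markers of ES cells, 10 were well above background in ES, 9 in the 4F clone, 10 in the 10F clone, and 5 and 6 in 3Fa and 3Fb. Their summed signal was 51378 in ES, 6871 to 7548 in the 4- and 10-factor clones, 3760 to 4101 in the 3-factor clones and 14.9 to 77.7 in the fibroblast-derived samples. The ES sum is mostly Dppa5a (30415, saturated) and Zfp42 (13073), which the sum lets outweigh the rest. Some of the 10 were near the ES level in the 3-factor clones, Fbxo15 with 255 and 208 against 237 and Nr0b1 with 267 and 328 against 331. Fbxo15 is the Fbx15 locus that holds the drug resistance gene, so the G418 step selected every clone for its activity. Nanog, also of the 10, was not well above background in either 3-factor clone. The 9 fibroblast markers summed to 1868 in ES and 1185 to 2239 in the clones, against 9460 to 62350 in the fibroblast-derived samples. These marker levels move with several results below, and their part in them was not tested. In any of these samples fewer cells of a type and less RNA per cell cannot be told apart.

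The Nodal probe was well above background on 2 of 9 arrays. Its signal was 73.9 ± 9.0 in ES and 16.0 ± 3.0 in the 10F clone. It was 3.21 in the 4F clone, -0.68 and 0.86 in 3Fa and 3Fb, and between -0.86 and 0.49 in the fibroblast-derived samples, none of them well above background. Only ES and the 10F clone thus stood above background, and the clone kept 21.7% ± 4.9 of the ES signal (error from both spots). ES was at least 23.1-fold above the 4F clone, at least 35.0-fold above 3Fa and at least 27.5-fold above 3Fb. Against MEF the ES signal was at least 23.4-fold higher.

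Tdgf1, the co-receptor, gave no signal well above background on any array. Its values ran from -3.04 in MEF to 0.69 in the immortalised line, with -2.77 ± 1.65 in ES and -1.05 to 0.18 in the clones. The probe therefore gives no order among the samples, ES included, and Tdgf1 was not tested. Whether the probe responds to its RNA cannot be told from these data, so the values do not show that Tdgf1 was absent.

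Lefty1, an inhibitor that binds Nodal and its co-receptor, was well above background on 5 arrays. Its signal was 1578 ± 159 in ES, 229 ± 25 in the 10F clone and 136.5 ± 14.8 in the unselected MEF. It was 15.2 ± 3.2 in MEF and 7.33 ± 2.92 in the 4F clone. In 3Fa and 3Fb it read 1.40 and 1.82, in the immortalised line 0.66 and in the NIH3T3 HRasV12 cells 0.21, none of these well above background. The groups overlapped, since MEF and the unselected MEF exceeded 3 of the 4 clones. The 10F clone kept 14.5% ± 2.2 of the ES signal and the 4F clone 0.464% ± 0.191. ES was at least 748-fold above 3Fa and at least 588-fold above 3Fb. The neighbouring levels of MEF and the 4F clone differed by 7.85, with a combined spot error of 4.36.

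Lefty2, the other inhibitor, was like Nodal highest in ES and next in the 10F clone. It measured 180 ± 20 in ES and 36.8 ± 4.9 in the 10F clone, 20.5% ± 3.5 of the ES signal. In MEF it was 4.55 ± 2.05 and in the 4F clone 4.45 ± 2.50, a difference (0.0983) far inside the combined spot error of 3.23. The remaining arrays were not well above background, at -1.93 to 1.76, so the 3-factor clones lay at least 85.2-fold (3Fa) and 67.0-fold (3Fb) below ES. Unlike the Lefty1 signal, that of Lefty2 was not well above background in the unselected MEF (1.76 ± 1.29).

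Gdf3 was the 1 gene of the 8 well above background in ES and every clone and in no fibroblast-derived sample. Its signal was 163 ± 18 in ES, 111 ± 13 in the 4F clone and 75.4 ± 9.1 in the 10F clone. It was 19.7 ± 2.8 in 3Fb and 6.07 ± 1.29 in 3Fa. MEF read -0.0303, the unselected MEF 0.261, the immortalised line 0.278 and the NIH3T3 HRasV12 cells -0.108. All 4 clones thus lay above all 4 fibroblast-derived samples, with the 3-factor clones below the others. Relative to ES the clones kept 68.2% ± 11.1 (4F), 46.2% ± 7.5 (10F), 12.1% ± 2.2 (3Fb) and 3.71% ± 0.89 (3Fa). The order of the 4- and 10-factor clones is the reverse of that for Nodal, Lefty1 and Lefty2, with a difference of 36.0 and a combined spot error of 16.1. The 3-factor clones differed from each other 3.25-fold.

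**Figure D1:**
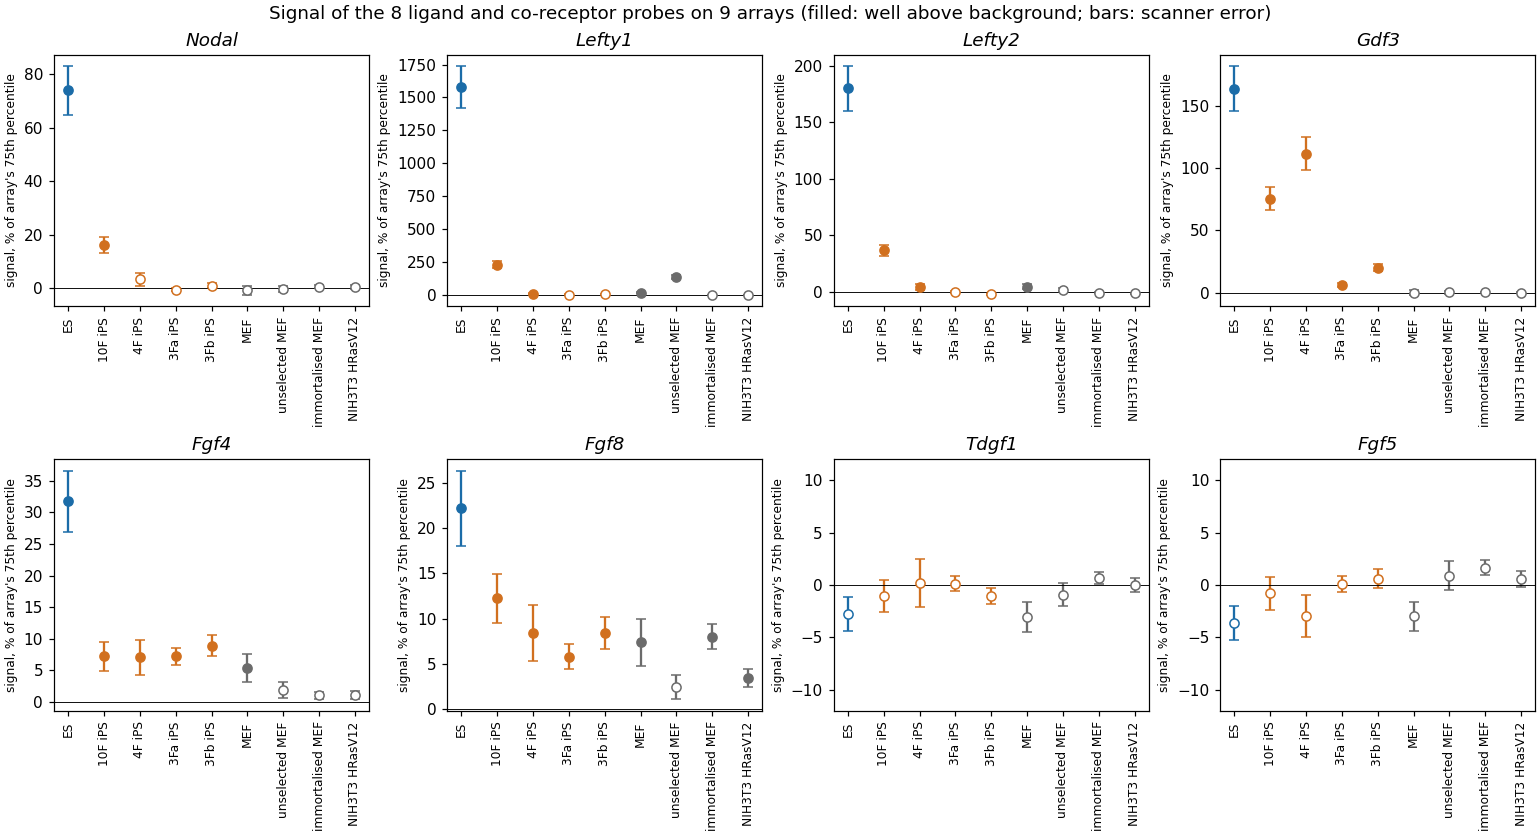
Signal of each of the 8 probes (vertical axis, percent of the array's 75th percentile, linear, with its own scale in each panel) on the 9 arrays. Points are single arrays, bars the scanner's spot error, and filled points are well above background. Nodal, Lefty1 and Lefty2 are high in ES with the 10F clone next, Gdf3 is present in all 4 clones, and Tdgf1 and Fgf5 show no filled point.

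Fgf4 was dim but well above background on 6 arrays. It measured 31.8 ± 4.8 in ES, 8.88 ± 1.66 in 3Fb, 7.23 ± 1.35 in 3Fa, 7.18 ± 2.25 in the 10F clone and 7.01 ± 2.76 in the 4F clone. MEF followed with 5.36 ± 2.17. The unselected MEF (1.88), the NIH3T3 HRasV12 cells (1.08) and the immortalised line (1.03) were not well above background. The 4 clones were close together, at 22.1% to 27.9% of the ES signal, and MEF was at 16.9% ± 7.3. The gap to MEF was within the combined spot error for the 4F, 10F and 3Fa clones, and 3.52 with a combined error of 2.73 for 3Fb.

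Fgf5 never rose well above background. The values ran from -3.63 ± 1.63 in ES to 1.64 ± 0.74 in the immortalised line, and from -2.98 to 0.612 in the clones. No order can be read from this probe, and it was not tested.

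Fgf8 was well above background on 8 arrays. The signal was 22.2 ± 4.1 in ES and 12.2 ± 2.7 in the 10F clone. The 4F clone and 3Fb both read 8.45, the immortalised line 8.03 ± 1.35, MEF 7.39 ± 2.59 and 3Fa 5.82 ± 1.35. The NIH3T3 HRasV12 cells had 3.45 ± 0.98, and the unselected MEF, at 2.45, was the array not well above background. Clones and fibroblasts overlapped. Relative to ES, the clones had 26.2% to 55.2% and MEF 33.3% ± 13.2.

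**Figure D2:**
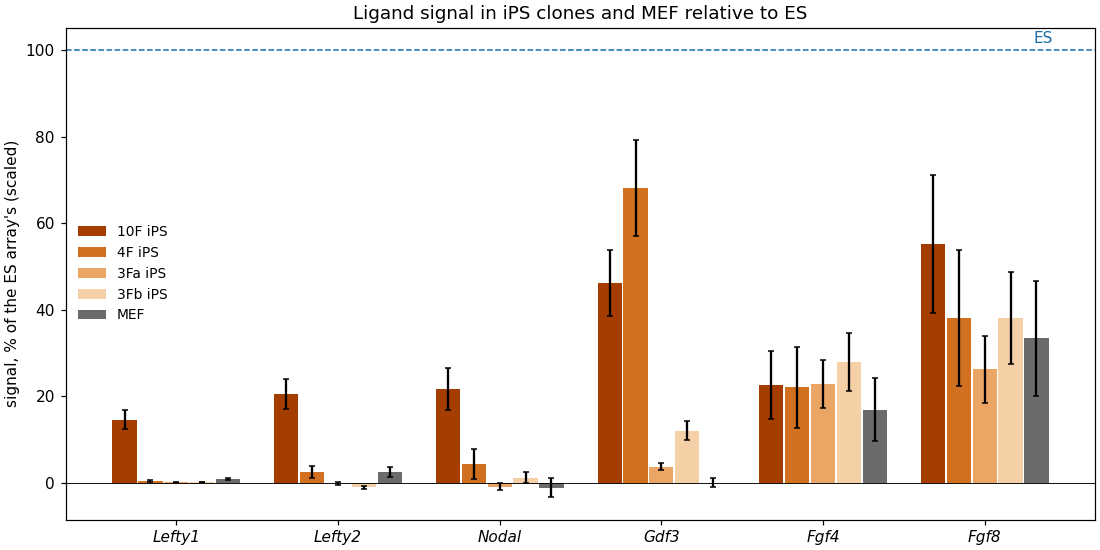
Signal in each iPS clone and in MEF as a percentage of the ES signal (vertical axis, linear), for the 6 genes well above background in ES. Bars are single arrays, error bars combine the spot errors of the array and of ES, and the dashed line is ES. Lefty1 is at 14.5% in the 10F clone and under 1% in the other clones and MEF, Gdf3 is at 68.2% in the 4F clone, and the Fgf4 bars of the 4 clones lie between 22.1% and 27.9%.

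Single arrays were next compared by the number of probes at least 5-fold higher with the brighter array well above background. ES exceeded MEF by this measure for 5 of the 8 genes, against 6.38% of all probes tested, namely Lefty1 (104-fold), Gdf3 (at least 51.6-fold), Lefty2 (39.6-fold), Nodal (at least 23.4-fold) and Fgf4 (5.93-fold). Over the 4F clone ES was higher for 3 genes (5.02% of probes), Lefty1 (215-fold), Lefty2 (40.4-fold) and Nodal. Over the 10F clone it was higher for Lefty1 alone (6.88-fold), against 2.98% of probes, although Lefty2 (4.89-fold) and Nodal (4.61-fold) were just under the limit. Over 3Fa and 3Fb it was higher for the same 4 genes, Lefty1, Lefty2, Nodal and Gdf3, against 5.39% and 5.05% of probes. Gdf3 differed 26.9-fold there for 3Fa and 8.29-fold for 3Fb. These are comparisons of 2 libraries with no replicate check.

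The clones were set against MEF in the same way. The 10F clone was higher for Gdf3 (at least 23.8-fold), Lefty1 (15.1-fold) and Lefty2 (8.09-fold), 3 of 8 against 4.09% of probes. Nodal was at least 5.07-fold higher by its bound but 4.42-fold at the floor, and is not in that count. The 4F clone was higher for Gdf3 alone (at least 35.2-fold), against 3.9% of probes. Of the 3-factor clones, 3Fb was higher for Gdf3 (at least 6.22-fold, 3.6% of probes) and 3Fa for none of the 8 (3.59%). Lefty1 ran the other way there, with MEF at least 7.19-fold above 3Fa and at least 5.65-fold above 3Fb. Between the 10- and 4-factor clones, Lefty1 (31.3-fold) and Lefty2 (8.27-fold) were higher in the 10F clone, 2 of 8 against 1.84% of probes. The unselected MEF exceeded MEF for Lefty1 alone (9.0-fold, 3.47% of probes), and Lefty1 was also the 1 gene of the 8 at least 5-fold above the 4F clone (18.6-fold, 7.05% of probes). In the unselected MEF, 3 of the 10 ES markers were well above background, with a summed signal of 77.7 against 20.8 in MEF. The immortalised line had 2 of the 10 and a sum of 62.9, with Lefty1 not well above background (0.66). Any link between these markers and the Lefty1 signal was not tested.

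The clones were then compared as a group with limma, on log2 differences with p-values adjusted over all probes tested. Tdgf1 and Fgf5 entered no comparison, and the others entered one when at least 50% of either group was well above background, so a gene could enter through its high group alone. Against the single ES array 6 of the 8 were tested, and Fgf4 was lower in the 4 clones, with a log2 difference of -2.07 ± 0.17 (SE), adjusted p = 0.00853. That is 1 of 6 tested, where 9.43% of 13211 probes were called lower. The call was lost with normexp background correction, with scaling to the median and without 3Fa (adjusted p = 0.0591). ES, MEF and the 4F and 10F clones shared a scan. Within it the Fgf4 difference was -2.16, and no probe was called. With scan as a block the Fgf4 difference is the same by construction, because ES was in that scan alone (adjusted p = 0.0265). It is therefore no second check of the size. The other 5 did not pass, with Lefty1 at -7.01 ± 2.85 (adjusted p = 0.206), Lefty2 at -4.72 ± 1.62 (adjusted p = 0.155) and Nodal at -3.81 ± 1.07 (adjusted p = 0.108). Within the shared scan these 3 were -5.27, -3.81 and -3.28. Gdf3 was at -2.37 ± 1.91 (adjusted p = 0.488), against -0.83 within the scan, and Fgf8 at -1.39 ± 0.44 (adjusted p = 0.135). At an unadjusted p under 0.05 there were 4, Nodal, Lefty2, Fgf4 and Fgf8. The number passing the adjusted threshold, 1 in the main fit, fell to 0 without 3Fa. It was larger without the 10F clone. Without it Lefty1 differed from ES by -8.43 (adjusted p = 0.0179), Lefty2 by -5.53 (adjusted p = 0.00524) and Fgf4 by -2.05 (adjusted p = 0.0277), while 16% of all probes were called. For Lefty1 and Lefty2, 2 of the 3 remaining clones are at the floor, which narrows their spread. For Nodal all 3 are at the floor, which leaves no spread among them, so only the difference of -4.35 is given, as a lower limit in size. With every clone at the floor a probe has no spread among the clones, and 520 of the 1783 probes called against ES and 409 of the 1834 called against MEF were of this kind. In a fit without such probes, chosen after seeing the data, 4.73% of probes were called against ES and 7% against MEF, and Fgf4 against ES kept its call (adjusted p = 0.0291).

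Against the 4 fibroblast-derived samples, 5 of the 8 were tested (not Nodal) and Fgf4 was higher in the clones by 0.91 ± 0.21 on the log2 scale (adjusted p = 0.0333), 1 of 5 where 4.2% of 12951 probes were called higher. All 4 clones lay above all 4 fibroblast-derived samples. Fgf4 entered this test through the clones alone, and 3 of the fibroblast-derived samples were at the floor, which narrows their spread. The call was lost in 13 of 20 alternative settings, including those without the 4F clone (adjusted p = 0.0658), the 10F clone (0.0714), 3Fa (0.106) or 3Fb (0.126), the immortalised line (0.0538) or the NIH3T3 HRasV12 cells (0.0795). Gdf3 was higher by 3.12 ± 0.84 (adjusted p = 0.0583), which missed the threshold, although without 3Fa it was 3.92 (adjusted p = 0.0197). Within scan 1, where MEF is the 1 fibroblast sample, Fgf4 was higher by 0.41 (adjusted p = 0.244; 0.271 with scan as a block) and Gdf3 by 4.66 (adjusted p = 0.203; 0.0533 with scan as a block). The differences were 0.83 ± 0.72 for Lefty2 (adjusted p = 0.491), 0.68 ± 0.36 for Fgf8 (adjusted p = 0.278) and -0.08 ± 1.64 for Lefty1 (adjusted p = 0.981), the last within its error of 0. Lefty1 was 1.43 within scan 1 and 1.06 without the unselected MEF, neither called. Against MEF alone, which is also 1 of those 4 samples, none of 5 tested passed by limma and 1 (Fgf4, 0.49 ± 0.17, adjusted p = 0.145) had an unadjusted p under 0.05, where 14.1% of 13052 probes were called.

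The last comparison set the 2 3-factor clones against the 4- and 10-factor clones. The 3-factor clones were scanned apart from the other clones, so scan and number of factors cannot be told apart. None of the 6 tested passed by limma, and 1 had an unadjusted p under 0.05, where 2 of 13557 probes were called (0.0148%), both with the 3-factor clones at the floor. That 1 was Gdf3, lower in the 3-factor clones by a log2 difference of -3.07 ± 0.73 (adjusted p = 0.170). Every 3-factor value of Gdf3 lay below every other clone's value, and with normexp background correction it was called (-1.74, adjusted p = 0.0259). As bounds, Lefty1 was at least 17.2-fold and Lefty2 at least 5.37-fold below the mean of the other clones (adjusted p of 0.414 and 0.481 by limma). These sizes rest on the 10F clone. With it left out, the log2 differences from the 4F clone were -1.01 for Lefty1 and -0.29 for Lefty2. Both 3-factor clones were at the floor for these genes. Nodal differed by -1.07 (adjusted p = 0.542), with every clone but the 10F clone at the floor. Fgf4 differed by 0.18 ± 0.14 (adjusted p = 0.542).

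**Figure D3:**
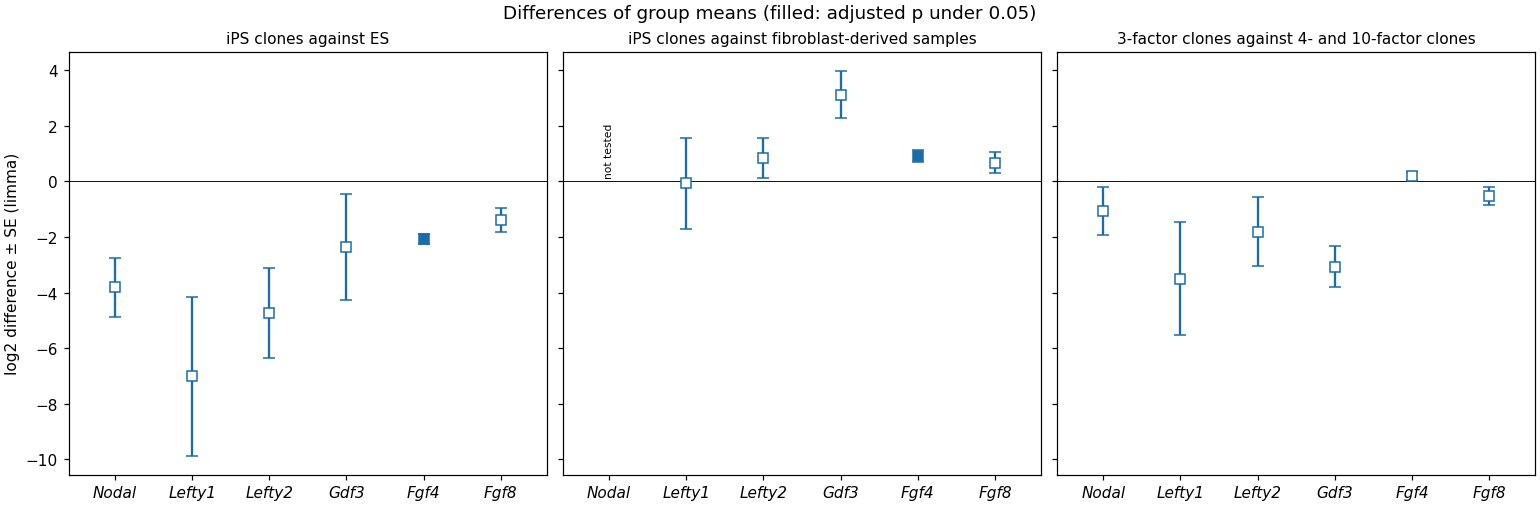
Log2 difference of group means with its standard error from limma (vertical axis) for the 6 genes with signal, in 3 comparisons. Filled squares have an adjusted p under 0.05: Fgf4 at -2.07 against ES and at 0.91 against the fibroblast-derived samples, most of which are at the floor for it. The Lefty1 error bars are the widest, and Nodal was not tested in the middle panel.

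The rest of the Nodal pathway was described from gene lists. Over all probes tested, 9.43% were called lower and 4.06% higher in the clones than in ES, 4.73% lower and 4.2% higher than in the fibroblast-derived samples, and 9.32% lower and 4.73% higher than in MEF. The counts for the lists below stand beside these shares, and nothing is read from a count near them. Genes with every clone at the floor are given by their bound, without a p. They are left out of the counts called lower, while the shares over all probes include probes of this kind. Of 7 receptors, co-receptors and transducers with a probe, none of 5 tested was called against ES by limma (1 at an unadjusted p under 0.05). Against the fibroblast-derived samples 1 of 6 was lower, Furin (-1.16 ± 0.22, adjusted p = 0.0196), the protease that cleaves the Nodal precursor, and none was higher. Against MEF, Acvr2b, an activin receptor through which Nodal signals, was higher (2.72 ± 0.45, adjusted p = 0.0391), 1 of 6 tested (4.73% of all probes). Smad3, a transducer of the signal, read 5.08 ± 2.04 in MEF and was not well above background in any clone, at least 1.95-fold lower. Its difference was 0 with a floor 2 times higher. The co-receptor Cfc1, the relative of Tdgf1, read 6.56 ± 2.30 in ES and 2.66 to 5.99 in the clones. The medians of this list were -0.38 against ES and -0.09 against the fibroblast-derived samples, beside -0.07 and 0.02 over all probes tested.

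Among 9 antagonists and feedback genes, none of 8 was called against ES by limma (2 at an unadjusted p under 0.05), while 1 of 8 was higher and 1 lower against the fibroblast-derived samples. Pmepa1, a target that damps TGF-beta signalling, read 5.63 to 7.61 in the clones and 68.2 to 97.8 in 3 of the 4 fibroblast-derived samples, with 8.71 in the immortalised line (-2.81 ± 0.71, adjusted p = 0.0487). That call was lost in 15 of 20 alternatives. Tgif2, a repressor of Smad transcription, rose by 1.61 ± 0.30 (adjusted p = 0.0179). The same 2 were called against MEF, Pmepa1 at -3.92 and Tgif2 at 1.72. Cer1, a secreted inhibitor of the antagonist list, was well above background on no array. The same held for the transcription factors T and Mixl1 among 8 Nodal targets of mesendoderm. Of the 4 targets tested against ES, Sox17 (7.54 ± 2.48 in ES) and Lhx1 (4.71 ± 2.15 in ES) were not well above background in any clone, at least 2.89-fold and at least 1.80-fold lower as bounds.

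Of 19 genes with a probe on the list of other TGF-beta family ligands, 2 of 14 tested were lower than in ES (9.43% of all probes) and 0 higher. Gdf1, a partner with which Nodal forms heterodimers, read 372 ± 39 in ES and 26.9 to 66.1 in the clones (-3.39 ± 0.60, adjusted p = 0.0460). Bmp4 fell by 2.23 on the log2 scale (SE 0.41, adjusted p = 0.0485), a call lost in 13 of 17 alternatives. Against the fibroblast-derived samples 2 of 14 were lower (4.73% of all probes), Tgfb1 (-3.66 ± 0.56, adjusted p = 0.00896) and Inhba, the activin A subunit (-3.52 ± 0.58, adjusted p = 0.0112). Against MEF 3 genes of the list with spread among the clones were lower, Inhba (-4.84), Bmp4 (-3.86) and Bmp1 (-2.47), and 0 were higher. Bmp1 is a protease and not a ligand of the family, although the list holds it. Gdf10, which read 35.0 ± 5.3 in MEF, was at least 13.3-fold lower in the clones, all of them at the floor.

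Of the 17 other Fgf family members with a probe, 8 were never well above background. Each array had 2 to 5 of the 17 well above it. Fgf17, a close relative of Fgf8, read 21.0 ± 3.7 in ES and -0.591 to 0.806 in the clones, at least 8.07-fold lower. Fgf15, which read 8.47 ± 2.68 in ES, was at least 3.25-fold lower, and for both every clone was at the floor. Of the other 3 tested against ES, Fgf18, of the same subfamily as Fgf8 and Fgf17, fell by 1.75 on the log2 scale (SE 0.28, adjusted p = 0.0374), and 0 were higher. Against the fibroblast-derived samples 1 of 4 was lower, Fgf7, a fibroblast-derived growth factor for epithelia (-2.63 ± 0.36, adjusted p = 0.00621). None of 4 was called against MEF by limma (2 at an unadjusted p under 0.05).

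Among 17 receptors and binding proteins, 15 were tested against ES. Fgfr4 read 37.2 ± 5.4 in ES and 5.19 ± 1.99 in the 10F clone, and was at the floor in every other clone. It entered the test through ES alone, and the clones at the floor narrow the spread that its p-value uses. Fgfr4 (-3.23 ± 0.26, adjusted p = 0.00853) and Fgfbp3 (-0.96 ± 0.18, adjusted p = 0.0483) were lower, 2 of 15 beside 9.43% of all probes. Klb, a co-receptor of endocrine Fgfs, was at the floor in every clone and 8.18 ± 2.46 in ES, at least 3.14-fold lower, while Hs2st1, a heparan sulfate sulfotransferase, was higher (1.24 ± 0.20, adjusted p = 0.0374), 1 of 15 beside 4.06%. Fgfbp1, a secreted carrier that releases Fgfs from the matrix, read 7.43 ± 2.82 in ES, 155 ± 18 in the 4F clone, 289 ± 30 and 266 ± 28 in 3Fa and 3Fb and 929 ± 90 in the 10F clone. In the unselected MEF it was 24.8 ± 3.5 and in the other fibroblast-derived samples 2.30 to 3.13, so all clones exceeded both ES and every fibroblast-derived sample. The difference from ES, 5.45 ± 1.08, missed the threshold (adjusted p = 0.0571). Against the fibroblast-derived samples Fgfbp1 rose by 5.79 ± 0.78 (adjusted p = 0.00582), and Fgfrl1, a receptor without a kinase domain, was lower (-1.83 ± 0.38, adjusted p = 0.0247), 1 higher and 1 lower of 12 tested. Against MEF 1 of 13 was higher, Fgfbp1 (at least 102-fold, adjusted p = 0.0391), and 2 were lower, Gpc1 (-1.78) and the receptor Fgfr1 (-1.03).

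Of 13 intracellular transducers, 1 of 12 was called against ES, Gab1, the docking protein of receptor tyrosine kinases. It read 39.5 ± 5.5 in ES and 3.63 to 4.76 in the clones (-3.32 ± 0.19, adjusted p = 0.00362). No transducer was called by limma against the fibroblast-derived samples (0 of 12, with 4 at an unadjusted p under 0.05) or MEF (0 of 13, with 5). Of 13 feedback genes and targets of ERK, 1 of 12 was higher than in ES and 0 lower. Fos, an immediate early gene, was not well above background in ES (-0.209) but read 59.0 to 86.8 in the clones, at least 19.8-fold higher. It entered this test through the clones alone, with the single ES value set to the floor. Against the fibroblast-derived samples Fos (3.95 ± 0.36, adjusted p = 0.00153) and Etv5, an ETS factor induced by Fgf (1.37 ± 0.32, adjusted p = 0.0353), were higher and none lower. Both were also higher than in MEF, Fos at least 22.7-fold and Etv5 at least 4.34-fold.

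These calls differed in how far they held. Fos in its 3 comparisons and Gab1 kept the call in every alternative setting other than the fit within scan 1, where no probe was called. These settings leave 2 limits in place. Fos entered against ES through the clones alone, and Gab1 was close to the floor in every clone. Against ES the calls were lost in 13 of 17 alternatives for Fgfbp3 and Bmp4, 12 for Hs2st1, 10 for Gdf1 and Fgf18 and 6 for Fgfr4. Against MEF they were lost in 12 of 17 for Fgfr1, 10 for Fgfbp1, 9 for Acvr2b, 8 for Bmp1 and Tgif2 and 7 for Inhba. Against the fibroblast-derived samples Pmepa1 lost its call in 15 of 20, Etv5 in 12, Fgfrl1 in 7 and Inhba, Tgfb1, Fgf7 and Fgfbp1 in 2 each. Between the 3-factor and the other clones none of 70 pathway genes tested was called by limma, with 14 at an unadjusted p under 0.05.

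**Figure D4:**
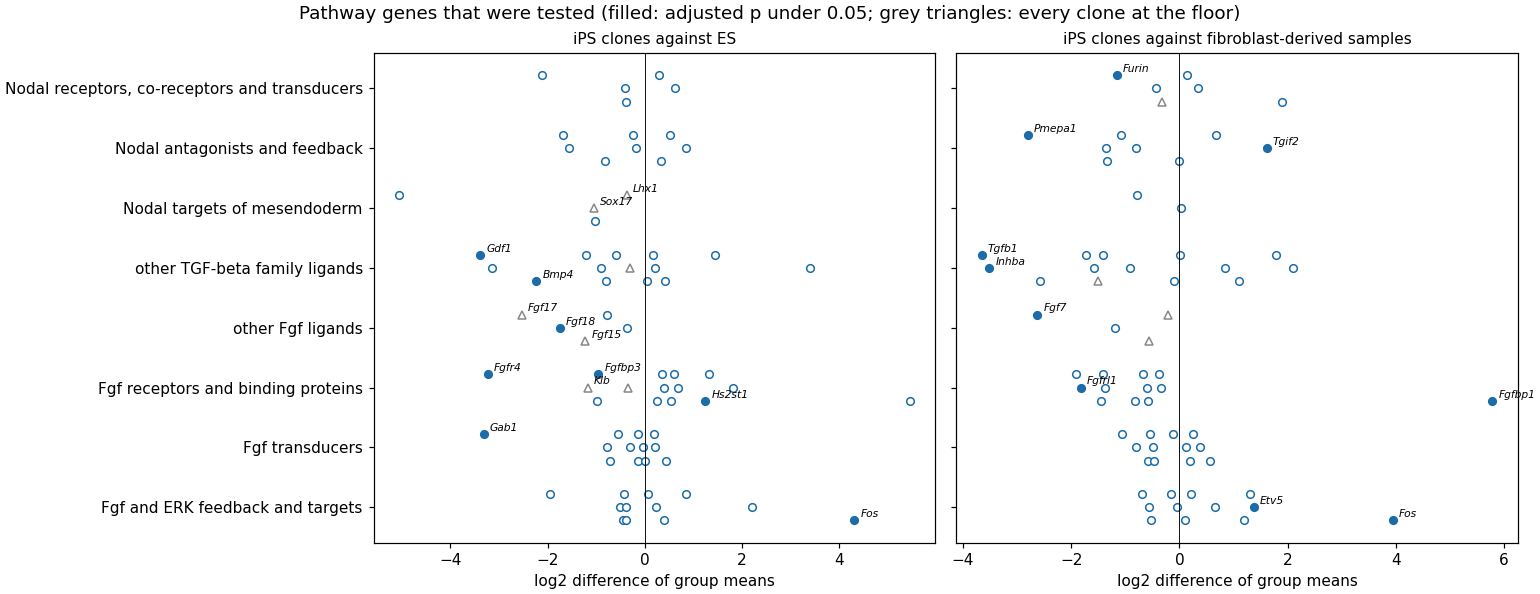
Log2 difference of group means (horizontal axis) for every tested gene of the 8 pathway lists, for the clones against ES (left) and against the fibroblast-derived samples (right). Each point is a gene, filled points have an adjusted p under 0.05, and grey triangles are genes with every clone at the floor, which have no spread among the clones. Fos lies far to the right in both panels, Fgfbp1 in the right one, and most other filled points are on the lower side.

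Across the 9 arrays the members resembled each other to different degrees, as Pearson correlations of log2 levels that share the same arrays and the same floor. Nodal and Lefty2 correlated at 0.995, Nodal and Lefty1 at 0.852, Lefty1 and Lefty2 at 0.860 and Lefty1 and Gdf3 at 0.538. For Nodal these values rest on the 2 arrays above the floor. Among 11295 named-gene probes well above background on at least 2 arrays, the patterns closest to Nodal were Diras1, Mageb16 and Gtsf1l (each at 0.9997 or more). Closest to Lefty1 were Fam161b (0.973), Gpr160 (0.969) and Bik (0.964), and to Lefty2 Rbmxl2 (0.999), Hand1 and Wdr86 (both 0.998). Gdf3 was most like Tfap2c (0.978), Def8 (0.977) and Rhbg (0.972), and Fgf4 most like Necab2 (0.985), Lat (0.978) and Zmynd8 (0.974).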

How the data were processed

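RNA of 9 mouse samples was measured once each. The deposited scanner files hold, per the file headers, intensity values from the program Feature Extraction (Agilent, version 8.5.1.1). Its processed signal, a linear intensity after background subtraction, and its spot error were used. The series' value table held the same signal within 0.5% and served as an alternative. The 736 control spots and spots called outliers (0 to 9 an array) were left out. Scaling divided the signals by the 75th percentile over an array's 20868 gene probes, after which a floor was set and log2 taken. The floor is the highest, over the arrays, of each array's lowest scaled signal well above background, and 39.8% to 49.3% of probes of an array were at it. A bound takes the brighter mean against, per array, the higher of that array's own lowest such signal and the dim probe's signal. Since the common floor is the highest of these, a bound can exceed the difference at the floor. Probes were named through RefSeq accessions (14227), other accessions, clone names and descriptions, and 4419 stayed unnamed. Of several probes of a gene, the brightest on average was used.

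Two-sided tests used lmFit and eBayes of limma 3.58.1 in R 4.3.3. A probe entered a test when it was well above background on 50% or more of either group's arrays, with Benjamini-Hochberg adjustment over all of them and a threshold of 0.05. Scans, from the file headers, were 1 (ES, MEF, 4- and 10-factor clones), 2 (3-factor clones), 3 (NIH3T3 HRasV12 and the immortalised line) and 4 (unselected MEF). The rule for named genes took every one of the 8, the called genes of 8 pathway lists (at most 4 a list and comparison, by size) and the 3 most similar patterns, and Cfc1, T, Mixl1 and Cer1 were added to show what was near background. The 8 genes and all lists were chosen with earlier results of these data known. The insert of the vector in the immortalised line is not reported here. The number of arrays limits the precision.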

Additional observations from a re-analysis of the deposited data

Results flagged for a closer look

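Within the 4 clones, and within the 4 fibroblast-derived samples, 6 log2 levels stood apart from the other 3 by Dixon's test. The 10F clone stood above the other clones for Nodal (-2.64, the others at the floor of -4.78), Lefty1 (1.20, next -3.77) and Lefty2 (-1.44, next -4.49). For Fgf4, 3Fb stood above the other clones (-3.49, next -3.79), a gap smaller than the combined spot error. MEF stood above the other fibroblast-derived samples, all at the floor, for Lefty2 (-4.46) and Fgf4 (-4.22), each close to the floor itself. In all, 10 groups of 4 with any spread were examined, chance alone marks about 1 group in 20, and groups whose other members share the floor are marked whenever the fourth is above it.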

How the results depend on the processing

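No paired analysis was possible because the labels give the clones and fibroblasts no shared replicate numbers that pair cultures. Of 156 recomputed counts of the 8 genes, 133 kept the main value or lay within 1.5 times of it. The count higher than in the fibroblast-derived samples (main 1) was 0 with normexp, scaling to the median, quantile normalization, a floor 2 times higher, scan as a block, within scan 1 and with the 3-factor clones averaged, 2 with a floor 4 times lower or the strict filter (Gdf3 then passes), and 0 to 1 with 1 array left out. The count lower than in ES (main 1) was 0 with normexp, scaling to the median and within scan 1, and 0 to 4 with 1 array left out (4 without the 10F clone, 1 of them Nodal with every remaining clone at the floor). Against the 4- and 10-factor clones, 1 was lower in the 3-factor clones with normexp (main 0). At least 5-fold in single arrays, ES exceeded MEF for 3 with normexp, the 10F clone for 3 with quantile normalization and 3Fb for 2 with normexp.

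Of 365 recomputed differences of single members, 318 kept direction and side of the threshold, 17 lost it, 7 gained it and 23 changed sign, none of these past the threshold. Lefty1 against the fibroblast-derived samples turned to 0.13 (normexp), 0.33 (floor 4 times lower), 1.43 (scan as a block, and within scan 1), 0.51 (3-factor clones averaged) and, with 1 array left out, ranged from -1.49 to 1.06. Against MEF it turned to 0.14 (normexp), 0.19 (floor 2 times higher), 1.43 (scan as a block, and within scan 1) and 0.27 (3-factor clones averaged), with 1 array left out -1.73 to 0.27. Normexp turned Lefty2 (-0.14), Fgf4 (-0.12) and Fgf8 (-0.14) against MEF and Fgf4 (-0.20) between the clones, and Lefty2 against MEF was -0.42 with a floor 4 times lower and, with 1 array left out, -0.23 to 0.89. The cause was not tested. Scaling to the median moved the median of all probes by 0.34 against ES, -0.29 against the fibroblast-derived samples and 0.23 between the clones; relative to it Fgf4 was -1.93 against ES (main -2.01) and 1.06 against the fibroblast-derived samples (main 0.89). It also changed the split of calls from 544 higher and 613 lower to 284 and 694 against the fibroblast-derived samples, and from 617 and 1217 to 271 and 979 against MEF.

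Calls over all probes were 1157, 1834, 1783 and 2 in the 4 comparisons (fibroblast-derived samples, MEF, ES, between the clones). With 1 array left out they were 413 to 1592, 318 to 1896, 475 to 2083 and 0, and within scan 1 there were 0 in the first 3. Without a filter on dim probes they were 642, 1316, 1563 and 40, and with the 3-factor clones averaged 443, 348, 505 and 0. With normexp they were 893, 947, 492 and 385, with the spread pooled over 9 arrays 1014, 205, 878 and 90, with a floor 4 times lower 1097, 1076, 739 and 0, and with a floor 2 times higher 1105, 1630, 1598 and 44. Scan as a block gave 740 against the fibroblast-derived samples, and scaling to the median 1013 against ES and 0 between the clones. In the fit without probes that have every clone at the floor, added after seeing the data, they were 875 against MEF and 596 against ES. Of 635 recomputed values of called pathway genes, 409 kept the call. Low signal limits Fgf4 and Fgf8, near the floor outside ES, and Tdgf1 and Fgf5, at the floor on every array. For Tdgf1 and Fgf5 little RNA and a probe that does not respond cannot be told apart.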

Other observations

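Of 6 genes of the primed epiblast, the state in which Fgf5 and Nodal signalling are known to be prominent, all 6 were well above background in the 10F clone. ES, the 4F clone, MEF and the unselected MEF had 4 each, both 3-factor clones and the NIH3T3 HRasV12 cells 3 each and the immortalised line 1. The genes went different ways. Dnmt3b, a DNA methyltransferase, read 285 in ES and 202 in the 10F clone, against 17.9 to 22.2 in the other clones. Pou3f1, a POU factor, read 520 in ES, 466 in the 4F clone and 387 in the 10F clone, and 26.4 and 67.2 in 3Fa and 3Fb. Zic2 was alike in the clones (13.7 to 21.7), ES (18.8) and MEF (25.2), and Sfrp2 was highest in the unselected MEF (580). Otx2 was well above background in the 10F clone alone (5.84 ± 2.18), and Sox3 in the 10F (6.60 ± 2.03) and 4F (4.27 ± 2.40) clones. Nanog, a pluripotency factor, read 604 ± 62 in ES, 58.4 ± 7.2 in the 10F clone, 17.9 ± 3.9 in the 4F clone, and 0.331 and 0.409 in 3Fa and 3Fb, neither well above background. Nanog was picked after its values were seen. All of these are values of single arrays, and the limma results of these marker genes are not given.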
